A study of Mus musculus with 8 samples.

Results

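The 31 genes described here encode the mitochondrial β-oxidation of fatty acids and the making and use of ketone bodies, with a few genes that are known to turn on with them in the fasted liver. They were chosen by symbol for these roles, with earlier results of these data known. Each was read from 1 probe, the brightest of its probes over the 8 arrays. In all, 22911 genes had a probe that could be named through RefSeq transcript accessions. The mice were male C57BL/6 of 10 weeks, 4 of the genotype *Agpat3* WT and 4 of the genotype *Agpat3* KO, and the Cy3-labeled RNA of each liver was put on its own one-color Agilent array. The study calls these mice its global KO model, so *Agpat3*, which encodes an acyltransferase of phospholipid synthesis, was not deleted in the liver alone. Whether the mice were fed or fasted when the livers were taken is not given in the sources used here. The arrays shared 1 slide and 1 scan, and row 1 held the WT livers while row 2 held the KO livers, so an effect of the row cannot be told apart from genotype.

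Long fatty acids enter mitochondria as carnitine esters, and malonyl-CoA, the first product of fatty acid synthesis, blocks the enzyme that makes these esters. Inside, each round of β-oxidation runs through an acyl-CoA dehydrogenase, a hydratase, a second dehydrogenase and a thiolase, and the liver turns much of the acetyl-CoA into ketone bodies during fasting. Many of the genes are targets of the fatty acid receptor PPARα. The study set the RNA profiles of WT and KO liver side by side to look at lipid metabolism, and here the same profiles are read for the oxidative side.

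Promoter sequences were taken from RefSeq (GRCm38.p6), in which 24 of the 31 genes had 27 promoters. Shown are the bases from 250 before the start of transcription up to the start, 5′ to 3′ on the strand of the gene, for the gene with the highest difference (*Pdk4*), the gene with the lowest (*Creb3l3*, 1 of its 2 promoters), and 1 gene each with a match to an element that PPARα is known to bind (*Etfa*) and to the sterol regulatory element that SREBP proteins bind (*Ucp2*).
Pdk4 (chr6:5496279-5496528, minus strand): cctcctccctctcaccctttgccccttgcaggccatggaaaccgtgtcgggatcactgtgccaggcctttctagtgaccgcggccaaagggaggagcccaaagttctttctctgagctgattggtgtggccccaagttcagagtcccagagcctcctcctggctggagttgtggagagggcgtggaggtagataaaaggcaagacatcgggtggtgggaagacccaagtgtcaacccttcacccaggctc
Creb3l3 (chr10:81092592-81092841, minus strand): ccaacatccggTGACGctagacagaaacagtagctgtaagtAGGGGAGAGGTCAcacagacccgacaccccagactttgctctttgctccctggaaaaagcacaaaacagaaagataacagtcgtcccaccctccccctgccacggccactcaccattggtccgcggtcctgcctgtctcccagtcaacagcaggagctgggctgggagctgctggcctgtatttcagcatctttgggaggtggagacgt
Etfa (chr9:55512244-55512493, minus strand): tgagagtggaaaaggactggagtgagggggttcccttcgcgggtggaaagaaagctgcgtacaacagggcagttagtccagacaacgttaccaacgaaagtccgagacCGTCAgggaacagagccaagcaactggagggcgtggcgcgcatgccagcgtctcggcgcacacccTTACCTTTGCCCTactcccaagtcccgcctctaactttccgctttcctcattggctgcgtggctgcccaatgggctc
Ucp2 (chr7:100493108-100493357, plus strand): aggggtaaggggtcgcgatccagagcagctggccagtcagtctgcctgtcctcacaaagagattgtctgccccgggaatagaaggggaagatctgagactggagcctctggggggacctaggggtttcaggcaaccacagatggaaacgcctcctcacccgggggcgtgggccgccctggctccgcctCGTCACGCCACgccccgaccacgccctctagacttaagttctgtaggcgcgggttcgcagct
Capitals mark the matches, on either strand, to the direct repeat DR1 (AGGTCA, any 1 base, AGGTCA) with up to 2 mismatches, to TCACNCCAC, the sterol regulatory element, and to TGACG, one side of the cAMP response element. In *Ucp2* the sterol and cAMP matches overlap, and *Pdk4* held no match. Matches were counted over the 300 bases of each promoter, 250 before the start of transcription and 50 after it. The exact direct repeat was in 0 of the 27 promoters, against 0.0396% of all 32851 promoters in the table. With up to 2 mismatches it was in 4, those of *Creb3l3*, *Echs1*, *Etfa* and *Slc25a20*, or 14.8% against 3.86% of all. The match in *Slc25a20* lay after the start, from base 7. The sterol element was in 1 promoter (3.7% against 1.24%), the whole cAMP element TGACGTCA in 0 (against 1.79%), and TGACG in 8 (29.6% against 20.8%). Of these 8 matches, that of *Pdk2* lay after the start, from base 43. These are matches of letters and were not compared with any binding data.

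The deletion could be read directly from *Agpat3*, whose log2 signals, set on each array against its 75th percentile here and below, fell from between 5.65 and 5.88 in WT to between -0.58 and 0.02 in KO mice (log2 difference -6.12, standard error 0.14, limma adjusted p = 4.46e-07). Of 56605 probes, 29069 stood well above background in all 4 mice of 1 genotype or both and entered the limma test. Calls required that the genotypes differ by more than 1.5-fold with an adjusted p (Benjamini-Hochberg) under 0.2, which 1.67% of the tested probes did. Any pair of arrays correlated at 0.985 or more over the tested probes. The 6 tested hepatocyte markers differed by -0.14 (*Fgb*) to 0.13 (*Apoa1*) on the log2 scale, with *Alb* at -0.011. Of 33 tested markers of hepatocytes, Kupffer, stellate, endothelial, bile duct, lymphoid, muscle and fat cells, 0 were called (limma, 3 at an unadjusted p under 0.05). These 3 were *Lrat* (0.50), *Lyve1* (-0.52) and *Sox9* (-0.64). The largest difference of the 33 was -0.95, for *Col1a1*, in which WT mouse 2 (log2 signal 1.82) stood above all other mice.

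In *Agpat3* KO liver, 0 of the 31 genes were called higher and 0 were called lower, against 0.939% and 0.726% of all tested probes. All 31 were well above background on all 8 arrays. None had an adjusted p under 0.2 at any fold change, which 4.13% of all tested probes had, and the lowest adjusted p was 0.259, for *Pdk4* (limma). Under other settings the adjusted p of 4 of the genes came under 0.2, with *Pdk4* alone past 1.5-fold as well. For *Crat* it was 0.153 with normexp background correction and 0.180 over the mean of its probes, for *Acad9* 0.142 in the unpaired t test, for *Vnn1* 0.155 with the replicate number as a block, and for *Pdk4* 0.156 without WT mouse 4. At an unadjusted p under 0.05, limma gave 4 genes, all higher, or 12.9% of them beside 13.3% of all tested probes. These 4 were *Crat*, *Acad9*, *Pdk4* and *Vnn1*. The 13.3% covers both directions, with 1611 of the 29069 tested probes higher and 2248 lower at that p. An unpaired t test on the same values also called 0 higher and 0 lower, with 3 higher and 2 lower at an unadjusted p under 0.05. In whole liver RNA, fewer cells of a type and less RNA per cell cannot be told apart.

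The differences were also small. The log2 differences, KO minus WT, ran from -0.16 to 0.73 with a median of 0.011 that turned to -0.026 when each array was scaled by its median, and 17 lay above 0 and 14 below. Over 14067 tested genes with 1 probe each, the median was -0.032 and 41.9% lay above 0. The median size of the difference, without its sign, was 0.072 for the 31 genes and 0.11 for the 14067. In 27 of the 31 genes the whole 95% interval of the difference lay within 1.5-fold in either direction, and in the other 4, *Cpt1b*, *Crat*, *Pdk4* and *Vnn1*, it reached past 1.5-fold on the higher side. The within-genotype SD lay between 0.034 and 0.44 on the log2 scale, with a median of 0.10 beside 0.16 for all tested probes. The tested probes include some that were well above background in only 1 genotype, unlike those of the 31 genes. Neither the SD nor the size of the difference was compared at like brightness. A further 14 probes of these genes differed by -0.19 to 0.29, 12 of them with the sign of the brightest probe, and 0 of them were called (lowest adjusted p = 0.388, limma).

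**Figure D1:**
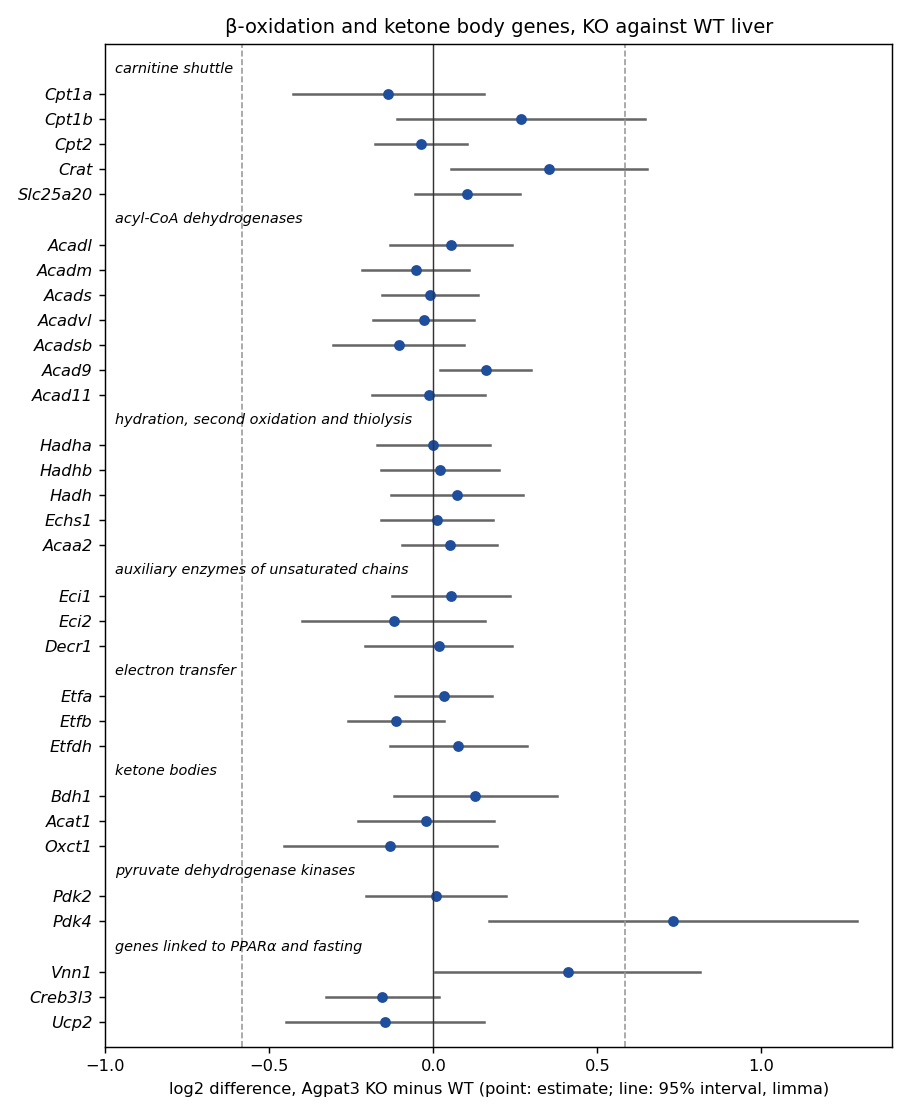
Log2 difference between KO and WT liver for the 31 genes by role, with the limma estimate as a point and the 95% interval as a line (n = 4 mice per genotype). The dashed lines mark 1.5-fold in either direction, and the intervals of 27 genes lie wholly between them, while *Pdk4* has the highest estimate, 0.73.

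The carnitine shuttle carries long acyl chains across the inner mitochondrial membrane, and *Cpt1a*, the liver form of its rate-setting first enzyme, is the step that malonyl-CoA blocks. *Cpt1a* had log2 signals of 5.40, 5.58, 5.95 and 5.72 in WT and of 5.45, 5.48, 5.44 and 5.74 in KO mice. The WT range held all KO mice, of which 3 sat together near its lower end and KO mouse 4 apart from them. The difference was -0.14 (standard error 0.13, 95% interval -0.43 to 0.15, limma adjusted p = 0.699). *Cpt2*, which turns the carnitine ester back into acyl-CoA, differed by -0.038 (95% interval -0.18 to 0.10), and *Slc25a20*, the carrier between both enzymes, by 0.10 (95% interval -0.057 to 0.26). *Cpt1b*, the muscle form, was well above background on all arrays and differed by 0.27 (95% interval -0.11 to 0.64). Of 5 muscle markers, *Myh6* alone was bright enough to be tested and differed by -0.052, and *Ckm* stood above background on 0 of the 8 arrays. The signals of all 5, summed, ran from 0.271 to 0.325 times the 75th percentile in WT mice and were 0.245, 0.341, 0.676 and 0.571 in KO mice. In KO mouse 3 *Tnnt2* (log2 signal -1.04) and in KO mouse 4 *Myh4* (-2.06) stood above all other mice. *Cpt1b* itself was highest in KO mice 4 and 2, at -1.85 and -1.97, and lowest among the KO mice in mouse 3, at -2.42, and the part of muscle RNA in it was not tested.

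*Crat*, which exchanges carnitine and CoA on short acyl chains, was chosen for a closer account after its values were seen. Its log2 signals were 2.66, 2.11, 2.25 and 2.51 in WT and 2.86, 2.62, 2.83 and 2.63 in KO mice. The KO mice lay at or above the upper end of the WT range, with only WT mouse 1 above 2 of them. The difference was 0.35, or 1.28-fold (standard error 0.13, 95% interval 0.055 to 0.65, limma adjusted p = 0.298), and a second probe differed by 0.29.

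Acyl-CoA dehydrogenases carry out the first oxidation of each round, and each prefers its own chain length. *Acadm*, for medium chains, had log2 signals of 6.69, 6.55, 6.65 and 6.56 in WT and 6.47, 6.57, 6.67 and 6.52 in KO mice, so that the genotypes overlapped through most of their range. Its difference was -0.054 (standard error 0.071, 95% interval -0.22 to 0.11, limma adjusted p = 0.796). Of the enzymes for other chain lengths, *Acadvl* (very long chains) differed by -0.029, *Acadl* (long chains) by 0.054, *Acads* (short chains) by -0.011, *Acadsb* (short branched chains) by -0.11 and *Acad11* by -0.014. For *Acadvl*, *Acads* and *Acad11* the sign turned under other settings, at a size of at most 0.051.

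*Acad9*, which acts on long chains and is known above all as an assembly factor of respiratory complex I, was 1 of the 2 genes in which the genotypes did not overlap. Its log2 signals were 2.60, 2.58, 2.57 and 2.49 in WT and 2.72, 2.67, 2.76 and 2.72 in KO mice. The lowest KO mouse was above the highest WT mouse, with all 8 inside a span narrower than 1.5-fold. The difference was 0.16, or 1.12-fold (standard error 0.06, 95% interval 0.021 to 0.30, limma adjusted p = 0.309), and the two-sided exact permutation test gave p = 0.0286, which no pattern of 4 against 4 mice can go below. A second probe of *Acad9* differed by 0.083 and its genotypes overlapped. Over all tested probes the genotypes did not overlap in 8.86%, beside 2 of the 31 genes, or 6.45%.

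The steps that follow, hydration, second oxidation and thiolysis, are run for long chains by the trifunctional protein, whose subunits are encoded by *Hadha* and *Hadhb*. *Hadha* gave log2 signals of 2.51, 2.50, 2.58 and 2.65 in WT and 2.53, 2.57, 2.69 and 2.45 in KO mice. Both genotypes had the same mean, 2.56, and the KO mice held both the highest and the lowest value. The 95% interval of its difference was -0.17 to 0.17, and *Hadhb* differed by 0.02 (95% interval -0.16 to 0.20). Of the enzymes for shorter chains, the difference was 0.011 for the hydratase *Echs1*, 0.072 for the dehydrogenase *Hadh* and 0.05 for the thiolase *Acaa2*. In this group all 5 intervals lay between -0.17 and 0.27.

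Unsaturated chains, among them the polyunsaturated fatty acids, need auxiliary enzymes that shift or reduce their double bonds before β-oxidation can go on. *Decr1*, the mitochondrial dienoyl-CoA reductase, had log2 signals of 7.06, 7.01, 7.15 and 7.13 in WT and 6.87, 7.24, 7.24 and 7.06 in KO mice. The KO mice enclosed the WT range, with KO mouse 1 below and KO mice 2 and 3 above all WT mice. The difference was 0.016 (standard error 0.098, 95% interval -0.21 to 0.24, limma adjusted p = 0.961). The isomerases *Eci1* and *Eci2* differed by 0.054 and -0.12, with 95% intervals of -0.13 to 0.23 and -0.40 to 0.16.

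Electrons from the first oxidation pass through the electron transfer flavoprotein (*Etfa*, *Etfb*) to its dehydrogenase in the inner membrane (*Etfdh*) and on to ubiquinone. *Etfb* was the other gene without overlap, with log2 signals of 8.19, 8.13, 8.22 and 8.27 in WT and 8.01, 8.12, 8.12 and 8.11 in KO mice. All KO mice lay below all WT mice, though WT mouse 2 and KO mouse 3 were almost level. The difference was -0.11, or 1.08-fold lower (standard error 0.064, 95% interval -0.26 to 0.033, limma adjusted p = 0.503, exact permutation test two-sided p = 0.0286). Its second probe differed by -0.02 with overlap, and *Etfa*, which encodes the partner subunit, differed by 0.032. *Etfdh* gave 5.84, 5.67, 5.87 and 5.89 in WT and 5.69, 5.97, 5.93 and 5.99 in KO mice. Of its KO mice 3 lay above all WT mice and KO mouse 1 close to the lowest WT mouse, and the difference was 0.077 (95% interval -0.13 to 0.28, limma adjusted p = 0.772).

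**Figure D2:**
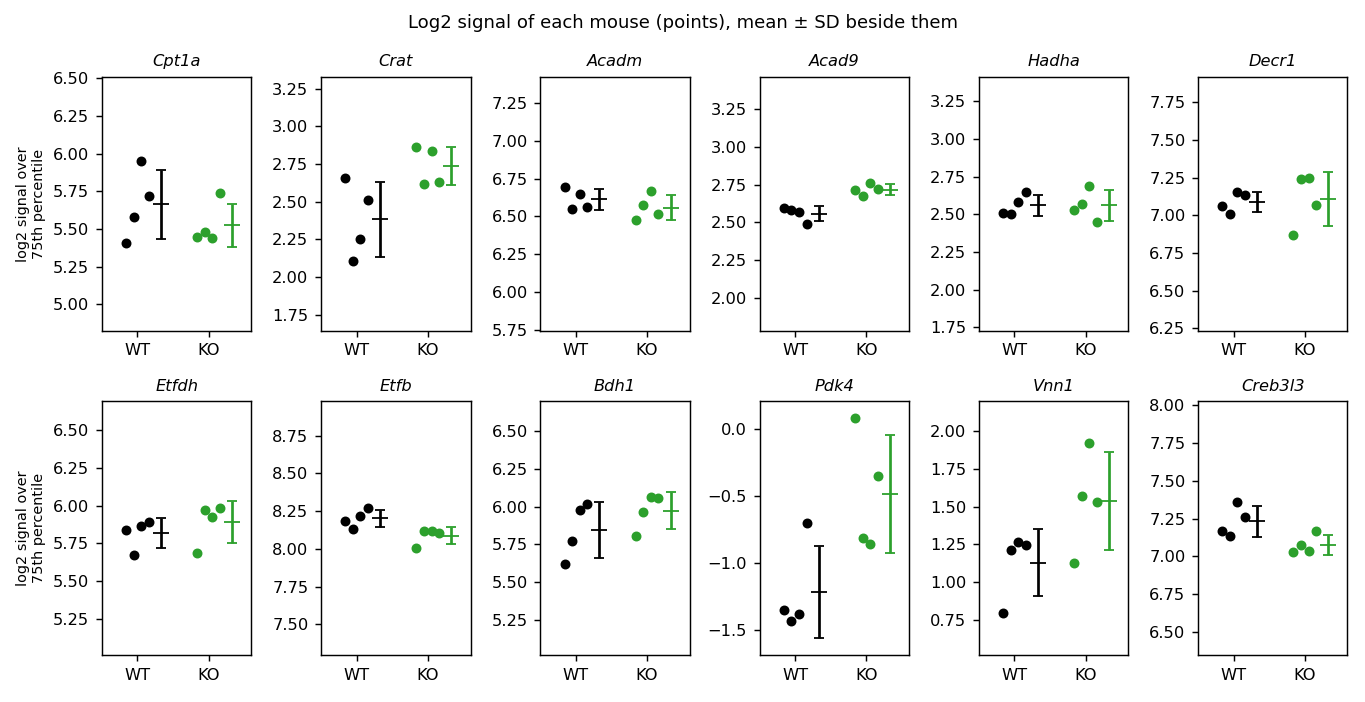
Log2 signal over the 75th percentile of each array for 12 of the genes, with 1 point per mouse (WT black, KO green) and the mean ± SD of 4 mice beside the points. Levels of different genes come from different probes and are not to be compared. The genotypes do not overlap in *Acad9* and *Etfb* and overlap in the other 10, and *Pdk4* and *Vnn1* have the widest spread between mice.

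Ketone bodies are made from acetyl-CoA as acetoacetate, reduced by *Bdh1* to β-hydroxybutyrate, and used in other tissues through *Oxct1*. *Bdh1* had log2 signals of 5.62, 5.77, 5.98 and 6.02 in WT and 5.81, 5.97, 6.07 and 6.06 in KO mice. The KO mice ran from the middle of the WT range to just above its top, and the difference was 0.13 (standard error 0.11, 95% interval -0.12 to 0.38, limma adjusted p = 0.669). *Acat1*, the mitochondrial acetoacetyl-CoA thiolase, differed by -0.022. *Oxct1* differed by -0.13 (95% interval -0.46 to 0.19).

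Pyruvate dehydrogenase kinases shut off the entry of pyruvate carbon into the citric acid cycle, and *Pdk4* is the form known to rise with fasting and PPARα. *Pdk4* had the highest difference of the 31 genes, with log2 signals of -1.35, -1.43, -1.38 and -0.70 in WT and 0.08, -0.81, -0.86 and -0.35 in KO mice. WT mice 1 to 3 lay below all KO mice, and WT mouse 4 lay within the KO range and above KO mice 2 and 3. The difference was 0.73, or 1.66-fold (standard error 0.24, 95% interval 0.17 to 1.29), with a limma adjusted p of 0.259 that was not under the threshold. Without WT mouse 4, the difference was 0.90 with an adjusted p of 0.156 and *Pdk4* was called. Over the removal of each mouse in turn the difference ran from 0.54 to 0.90 and the adjusted p from 0.156 to 0.461, and normexp background correction gave 0.49. *Pdk2*, the form that is always present in liver, differed by 0.0077 (95% interval -0.21 to 0.22).

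Of the genes linked to PPARα and fasting, *Vnn1*, a pantetheinase and PPARα target, was described further after its values were seen. Its log2 signals were 0.80, 1.22, 1.26 and 1.24 in WT and 1.13, 1.57, 1.92 and 1.53 in KO mice. KO mice 2 to 4 lay above all WT mice, and KO mouse 1 lay below 3 of them. The difference was 0.41, or 1.33-fold (standard error 0.18, 95% interval 0.0063 to 0.81, limma adjusted p = 0.37). *Creb3l3*, a hepatic membrane-bound transcription factor that works with PPARα in fasting, had log2 signals of 7.17, 7.13, 7.36 and 7.26 in WT and 7.03, 7.07, 7.03 and 7.17 in KO mice. Here 3 KO mice lay below all WT mice and KO mouse 4 among them, and the difference of -0.16 was the lowest of the 31 (standard error 0.075, 95% interval -0.33 to 0.016, limma adjusted p = 0.42). *Ucp2*, a mitochondrial carrier, differed by -0.15 (95% interval -0.45 to 0.16), and by 0.097 at its second probe.

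Some mice stood at the edge of the range for many of the genes at once. KO mouse 1 had the lowest value of all 8 mice in 10 of the 31 genes and lay above the mean of its genotype in 3, 1 of which was *Pdk4*, where it was the highest of all. KO mouse 3 had the highest value in 14 genes, and WT mouse 2 the lowest in 9. The typical shift was small, with a median deviation from the genotype mean between -0.077 in KO mouse 1 and 0.077 in KO mouse 3 on the log2 scale. To see whether the genes moved with *Pdk4* from mouse to mouse, 9 of them were correlated with it over the 8 mice, and 0 of 9 passed an adjusted p under 0.05 (permutation tests over all pairings, 1 at an unadjusted p under 0.05). That 1 was *Acadm*, with Pearson's r of -0.72 (permutation p = 0.0443, adjusted p = 0.399) and Spearman's rho of -0.57 (permutation p = 0.151, adjusted p = 0.648). Without the 2 mice farthest from the median of *Pdk4*, WT mouse 2 and KO mouse 1, r was -0.85, and within genotypes, as deviations from the genotype means, it was -0.70 (permutation p = 0.0955, adjusted p = 0.859).

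**Figure D3:**
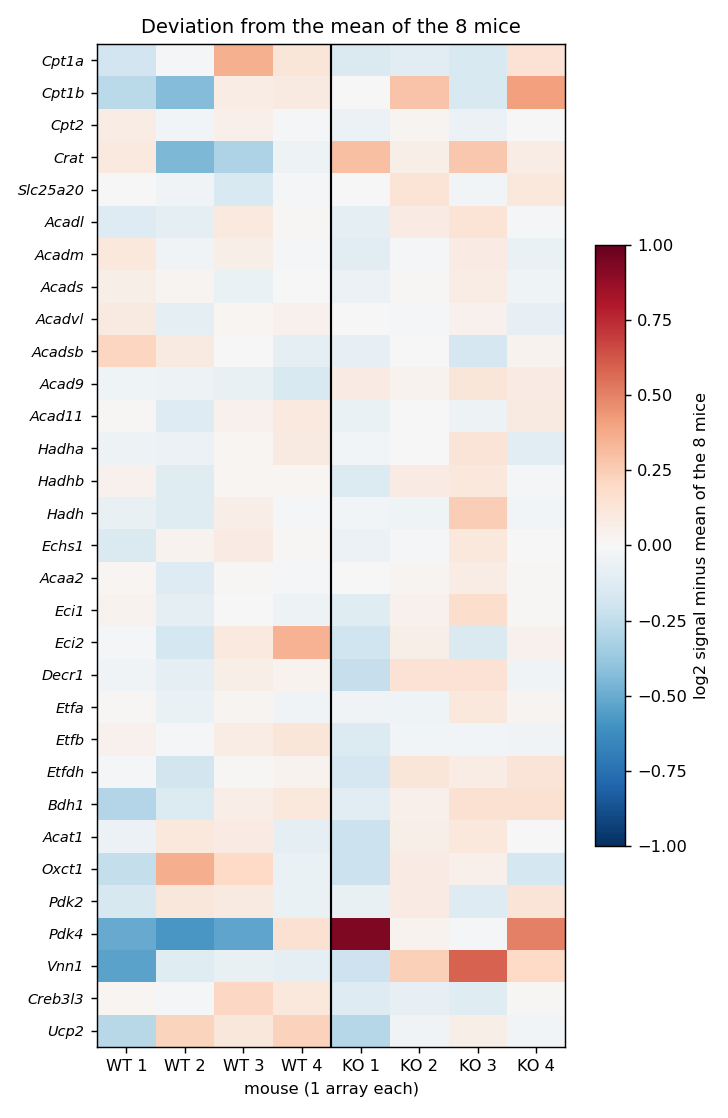
Log2 signal of each of the 31 genes in each mouse minus the mean of the 8 mice for that gene, in color from -1 (blue) to 1 (red), with WT mice left and KO mice right of the line. Most cells are pale. *Pdk4* has the strongest colors, from -0.58 in WT mouse 2 to 0.93 in KO mouse 1, and the column of KO mouse 1 is mostly blue, with 10 of the lowest values.

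Beyond the 31, 68 further genes of the same metabolism were read from lists made by function, and 65 of them were tested. These lists were chosen with earlier results of these data known, so the share called in them does not test the pathway as a whole. Of the 65 tested genes, 3 (4.62%) were called higher and 0 lower, beside 0.939% and 0.726% of all tested probes (limma). Their median difference was 0.056, with 39 above 0. Limma gave 9 higher and 4 lower at an unadjusted p under 0.05, which 13.3% of all tested probes had in either direction. An unpaired t test called 2 higher and 0 lower, with 8 higher and 4 lower at an unadjusted p under 0.05. The 3 genes called by limma were *Acacb*, *Pdk1* and *Aacs*. In carnitine supply, other acyl-CoA dehydrogenases, the odd-chain end, other mitochondrial steps, regulators, PPARα targets outside mitochondria and feeding state, 0 of 47 tested genes were called higher and 0 lower (limma, 8 at an unadjusted p under 0.05, beside 13.3% of all tested probes). Of these 8, 3 were among the 9 regulators and 3 among the 13 PPARα targets. Carnitine supply and other mitochondrial steps held 1 each.

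Malonyl-CoA is made by acetyl-CoA carboxylases and removed by malonyl-CoA decarboxylase (*Mlycd*), and *Acacb* encodes the carboxylase at the mitochondrial membrane, beside CPT1. *Acacb* had log2 signals of 3.96, 3.79, 3.92 and 3.53 in WT and 5.29, 5.22, 5.18 and 4.74 in KO mice. All KO mice lay well above all WT mice, and the difference was 1.31, or 2.48-fold (standard error 0.14, 95% interval 0.98 to 1.64, limma adjusted p = 0.0131). A second, dimmer probe of *Acacb* differed by only 0.19 (limma adjusted p = 0.481), so the probes disagree. *Acaca*, the cytosolic carboxylase, named here after its values were seen, gave 4.83, 4.72, 4.81 and 4.75 in WT and 5.34, 5.27, 5.68 and 5.08 in KO mice. Its difference was 0.57, or 1.48-fold (standard error 0.12, limma adjusted p = 0.107), without overlap but under the fold change of 1.5, and its 3 other probes differed by 0.53 to 0.72. Of these probes 2 were called, at 0.72 and 0.65 (limma adjusted p = 0.0765 and 0.0413). *Acaca* itself was called with normexp (0.61), over the mean of its probes (0.62), without WT mouse 1 (0.59) and without KO mouse 4 (0.66), at an adjusted p up to 0.183. *Mlycd* had 5.62, 5.52, 5.62 and 5.55 in WT and 5.51, 5.59, 5.54 and 5.58 in KO mice, with a difference of -0.025 (95% interval -0.17 to 0.11, limma adjusted p = 0.899).

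*Aacs*, a cytosolic enzyme that spends acetoacetate on the synthesis of lipids rather than on ketogenesis, had log2 signals of 4.36, 3.45, 2.84 and 2.48 in WT and 5.33, 5.29, 4.96 and 4.29 in KO mice. WT mouse 1 lay just above KO mouse 4, and the other WT mice below all KO mice. The difference was 1.68, or 3.21-fold (standard error 0.41, limma adjusted p = 0.137). This call was lost without WT mouse 2 or 3 or KO mouse 1, 2 or 3, with no filter on dim probes and in the unpaired t test, at an adjusted p up to 0.321. In both genotypes the signal of *Aacs* fell from mouse 1 to mouse 4, which is also the order of the slide columns. What caused this fall was not tested. With the replicate number as a block, the adjusted p of *Aacs* was 0.069 (limma). *Pdk1*, a pyruvate dehydrogenase kinase like *Pdk4*, had 3.25, 3.30, 3.32 and 3.16 in WT and 3.68, 3.88, 3.90 and 3.97 in KO mice, a separation without overlap. Its difference was 0.60, or 1.52-fold (standard error 0.082, 95% interval 0.41 to 0.79, limma adjusted p = 0.0293). Its other probes differed by 0.66, 0.94 and -0.016, so they disagree too, and under the median of each array, over the mean of its probes, and without WT mouse 4 or KO mouse 4 it fell below 1.5-fold, to 0.55 at the lowest.

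Of the regulators, *Ppara*, which encodes PPARα, had log2 signals of 5.46, 5.66, 6.07 and 6.00 in WT and 5.68, 5.80, 5.55 and 5.82 in KO mice, all KO mice within the WT range. The difference was -0.086 (95% interval -0.42 to 0.25, limma adjusted p = 0.845). Of 13 PPARα targets outside mitochondria, 8 lay above 0 and 5 below, with a median of 0.090 and 0 called. They ran from -0.22 (*Pex11a*, 95% interval -0.43 to -0.020) to 1.17 (*Cyp4a14*, 95% interval -0.21 to 2.54). The next highest were *Fgf21* at 0.73 (95% interval -0.83 to 2.29) and *Cyp4a10* at 0.69 (95% interval -0.17 to 1.55). The highest estimates were thus also imprecise. At an unadjusted p under 0.05, limma gave 3 of the 13, *Pex11a* and 2 that were higher. These were *Ehhadh* at 0.34 (95% interval 0.039 to 0.65, limma adjusted p = 0.319) and *Acaa1b* at 0.26 (95% interval 0.057 to 0.46, limma adjusted p = 0.266). *G6pc*, the last enzyme of glucose output and a gene known to follow feeding, had 6.94, 5.30, 6.44 and 7.02 in WT and 7.30, 7.37, 5.69 and 7.52 in KO mice. Each genotype held 1 mouse far below its others, WT mouse 2 and KO mouse 3, and the difference was 0.54 (95% interval -0.60 to 1.69, limma adjusted p = 0.697).

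**Figure D4:**
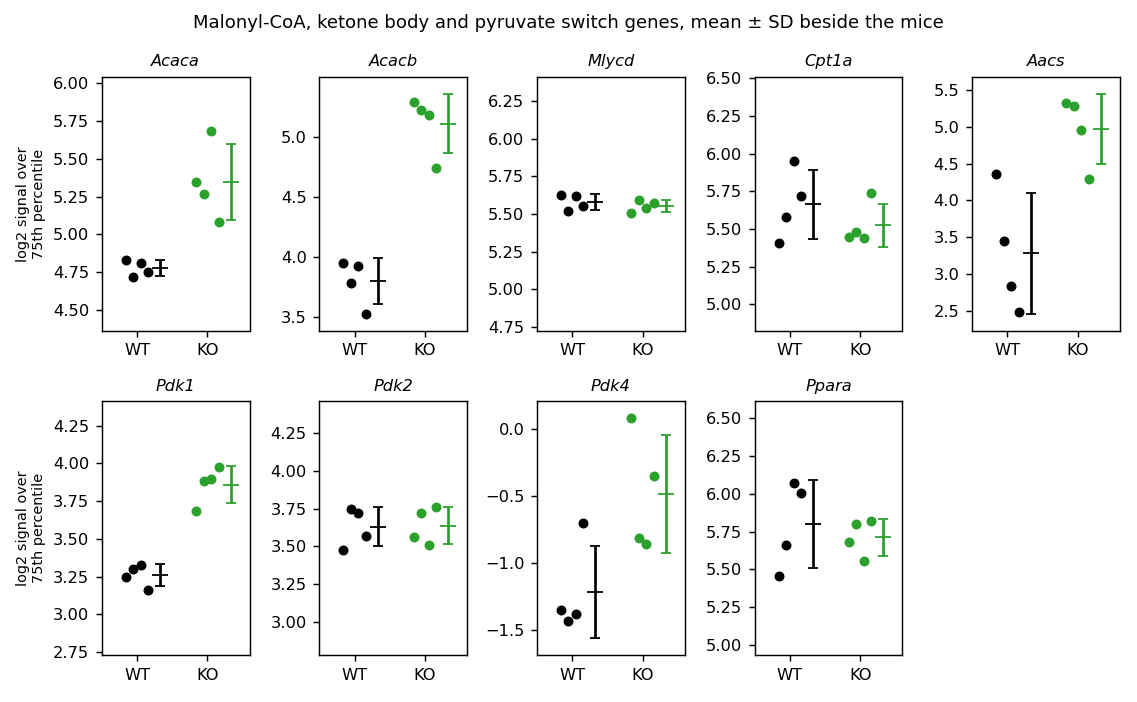
Log2 signal over the 75th percentile of each array for genes of malonyl-CoA (*Acaca*, *Acacb*, *Mlycd*, with *Cpt1a*), the use of acetoacetate (*Aacs*), pyruvate dehydrogenase kinases (*Pdk1*, *Pdk2*, *Pdk4*) and *Ppara*, 1 point per mouse (WT black, KO green), with the mean ± SD of 4 mice. The genotypes are apart in *Acaca*, *Acacb* and *Pdk1* and overlap in the other 6.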

How the data were processed

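Each of 8 livers, 4 *Agpat3* WT and 4 *Agpat3* KO, was measured on 1 one-color array. The authors deposited the scanner output of Agilent Feature Extraction 10.7.1.1, whose processed intensities are background-corrected on a linear scale, and a table of log2 values that equal the log2 of these intensities minus the 75th percentile of each array. Groups follow the sample labels. Control and outlier spots were left out, log2 intensities were set relative to the 75th percentile, spots of a probe were averaged, and a probe was kept if either genotype had it well above background in all 4 mice. Between 29886 and 31888 probes per array were well above background, the median background was 27 to 32 intensity units, and no spot was saturated. The comparison of KO with WT used limma 3.58.1 (lmFit, then eBayes, two-sided) under R 4.3.3, with p adjusted by Benjamini-Hochberg across 29069 probes. Calls needed more than 1.5-fold and an adjusted p below 0.2. Both limits are those of the study's volcano plot, but its legend does not say whether p was adjusted, and the adjustment was chosen here. For single genes an exact permutation test over all 70 assignments was added. Symbols came from RefSeq (GRCm38.p6) through accessions, for 32994 of 56605 probes. The array design names another build, so no probe coordinates are given.

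The 31 genes and all lists were chosen with earlier results of these data known. Values are given by mouse for genes whose genotypes did not overlap, for *Cpt1a*, *Acadm*, *Hadha*, *Decr1*, *Etfdh*, *Bdh1*, *Pdk4* and *Creb3l3*, for called pathway genes, and for *Acacb*, *Mlycd*, *Ppara* and *G6pc*. 1 further gene of this rule is not reported here. *Crat*, *Vnn1* and *Acaca* were added after their values were seen. Alternatives were normexp background correction (offset 50, on the median spot signal), quantile and median scaling, the deposited log2 values, other filters, outlier spots kept, eBayes with trend and robust options, a replicate block, an unpaired t test, other probes and thresholds, and each array left out in turn.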

Additional observations from a re-analysis of the deposited data

Results flagged for a closer look

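In 7 of the 78 groups of 4 mice examined, 1 mouse stood far from the other 3 of its genotype. The test used is one that chance alone meets in about 1 group of 20. The groups were those of the 31 genes and of *Agpat3*, *Acacb*, *Acaca*, *Aacs*, *Pdk1*, *Mlycd*, *Ppara* and *G6pc*. Further genes were not examined in this way. On the high side were *Cpt1a* in KO mouse 4 (log2 signal 5.737, others 5.44 to 5.48), *Hadh* in KO mouse 3 (5.347, others 5.06 to 5.08) and *Pdk4* in WT mouse 4 (-0.6984, others -1.43 to -1.35). On the low side were *Hadhb* in WT mouse 2 (5.836, others 5.97 to 6.00), *Etfb* in KO mouse 1 (8.006, others 8.11 to 8.12) and *Vnn1* in WT mouse 1 (0.7951, others 1.22 to 1.26). *G6pc*, which is not one of the 31 genes, was low in KO mouse 3 (5.687, others 7.30 to 7.52). Of these, *Pdk4* is the gene whose call turns on the mouse that stands apart. Without KO mouse 1, the difference of *Etfb* between the genotypes was -0.086 in place of -0.11, and over the removal of each mouse in turn that of *Cpt1a* ran from -0.22 to -0.041.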

How the results depend on the processing

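No alternative called any of the 31 genes lower. *Pdk4* was the 1 gene called higher, without WT mouse 4 and, at a fold change over 1.5, with an unadjusted p under 0.2, so that the count ran from 0 to 1 over the removal of each mouse. That threshold gave 6 pathway genes, 534 higher and 451 lower probes in place of 273 and 211. Probes called higher and lower were 180 and 65 with normexp (73.5% higher against 56.4%), 122 and 131 with no filter on dim probes, 165 and 104 in the unpaired t test, 82 and 35 at an adjusted p under 0.05, and 557 and 645 with no minimum fold change. Only probes above background on all 8 arrays gave 125 lower. Each mouse removed in turn gave 152 to 334 higher and 105 to 311 lower, and the lowest counts came without WT mouse 3, while the lower count also fell to 110 without WT mouse 2 and 109 without KO mouse 2.

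The log2 difference kept 1 sign over 20 alternatives in 20 of the 31 genes, and in the other 11 it turned at sizes up to 0.097. It also turned in *Mlycd* and *Ppara*, which are not among the 31 and are listed here beside the 11. Under normexp the difference became 0.0227 for *Acads*, 0.0027 for *Acadvl*, 0.0227 for *Acad11*, 0.0075 for *Mlycd*, -0.0085 for *Hadhb*, -0.020 for *Echs1* and -0.017 for *Decr1*. Quantile normalization gave 0.021 for *Acadvl*, 0.0075 for *Acad11* and 0.016 for *Hadha*. The median of each array gave -0.017 for *Hadhb*, -0.026 for *Echs1*, -0.021 for *Decr1*, -0.0057 for *Etfa* and -0.030 for *Pdk2*. For *Hadha* the deposited values gave 0.0010 and outlier spots kept 0.00015. The mean of the probes gave 0.018 for *Acad11* and 0.0034 for *Mlycd*, and the dimmest probe 0.051, 0.032 and, for *Ucp2*, 0.097. Each mouse removed in turn gave -0.037 to 0.0063 for *Acads*, -0.060 to 0.017 for *Acad11*, -0.044 to 0.037 for *Hadha*, -0.016 to 0.069 for *Hadhb*, -0.035 to 0.039 for *Echs1*, -0.030 to 0.096 for *Decr1*, -0.062 to 0.045 for *Acat1*, -0.044 to 0.051 for *Pdk2* and -0.20 to 0.0057 for *Ppara*. The causes of these turns were not tested.

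Correlations with *Pdk4* turned as deviations from the genotype means to 0.15 for *Cpt1a*, -0.49 for *Vnn1* and 0.12 for *Creb3l3*, and without the 2 mice farthest from its median to 0.011 for *Cpt1a* and 0.30 for *Ucp2*.

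The replicate block called 327 probes higher and 265 lower, 0 of the 31 genes and 4 pathway genes. With this block *Pdk4* differed by 0.73 at an adjusted p of 0.2005 (limma), just above the limit. Same-numbered mice had correlations of deviations of 0.33, -0.11, 0.10 and 0.32. WT mice 1, 3 and 4 correlated best with the KO mouse of their own number, and WT mouse 2 with KO mouse 3 (0.27). The sample labels name no pairs, and the main test did not take the numbers as pairs. On the slide, mice with the same number lay in the same column, so the block is also one for the column. All arrays lay on 1 slide and in 1 scan, so neither was run as a block. The precision is limited by 4 arrays per genotype.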

Other observations

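Of the pathway genes outside the 31, 6 had an adjusted p from 0.2 up to 0.3, a limit set after their values were seen, and 4 of them were higher and 2 lower in KO mice. None was called. *Slc22a5*, the transporter that brings carnitine into cells, had log2 signals of 1.67, 1.52, 1.70 and 2.04 in WT and 1.42, 1.34, 1.35 and 1.34 in KO mice. All KO mice lay below all WT mice, at a difference of -0.37 (standard error 0.11, limma adjusted p = 0.206), and a second probe differed by -0.41. *Ppargc1a*, a coactivator of PPARα, gave 0.63, 0.83, 0.87 and 1.32 in WT and 1.66, 1.41, 1.86 and 1.13 in KO mice, with KO mouse 4 below WT mouse 4. Its difference was 0.60 (standard error 0.19, limma adjusted p = 0.237) and that of its second probe 0.58. *Slc16a7*, a monocarboxylate transporter that carries ketone bodies, differed by 0.46 (limma adjusted p = 0.262) with overlap, and its other probes by 0.22 to 0.65. *Acot2*, a mitochondrial thioesterase that splits acyl-CoA, differed by 0.43 with overlap (limma adjusted p = 0.265). *Acaa1b*, a peroxisomal thiolase, lay higher in all KO than in all WT mice, at 0.26 (limma adjusted p = 0.266). *Hnf4a*, a receptor that defines hepatocyte gene expression, differed by -0.33 with overlap (limma adjusted p = 0.276), and by only -0.095 at its second probe (adjusted p = 0.843).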
